A study of Mus musculus with 12 samples.

Results

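The transcriptional co-activators YAP (gene Yap1) and TAZ (gene Wwtr1), the DNA-binding factor TEAD1 (Tead1) through which they act, and 5 of their target genes (Ctgf, Cyr61, Ankrd1, Amotl2 and Ajuba) were followed in RNA-seq of mouse liver with nonalcoholic steatohepatitis (NASH). The 8 genes were taken by symbol. All of them had a row in both tables, among 16273 genes measured in liver sinusoidal endothelial cells (LSEC) and 16703 measured in whole liver. The 4 groups were NASH LSEC, chow LSEC, NASH whole liver and chow whole liver, with 3 libraries each, all from C57BL/6 mice. The protocol gives 36 weeks on a NASH diet (D09100301, Research Diets). It is attached to every sample, chow included. A genotype, a sex and an age are not given. LSEC, which line the blood channels between hepatocytes, were isolated from non-parenchymal cells by depleting CD11b+ cells and then selecting CD146+ cells on magnetic beads. CD146 is also carried by other endothelium. The questions are whether the RNA of these genes depends on the diet in isolated endothelium and in intact liver, and whether the 2 tissues differ in that response. Since no label says that libraries are separate animals, the spread behind the p-values is that between these samples and may be technical.

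The Hippo kinases MST1/2 and LATS1/2 phosphorylate YAP and TAZ, which holds both proteins in the cytoplasm and leads to their breakdown. When the kinases are off, for example in stretched cells or on stiff matrix, YAP and TAZ enter the nucleus, bind TEAD factors and switch on genes for matricellular proteins, cytoskeletal regulators and inhibitors of the pathway itself. In liver the pathway is known for its control of organ size, bile duct cell fate and the activation of stellate cells. Activity is set mainly at the protein level, and RNA reads only transcript abundance.

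TEAD factors bind the letters GGAATG or their reverse complement CATTCC. Promoter sequence (RefSeq, GRCm38.p6, 250 bases before to 50 after the gene start) was at hand for 6 of the 8 genes, all but Ctgf and Tead1. All 6 held at least 1 match on either strand. Over all 32851 promoters of the same length, 14.7% held at least 1 match and 1.36% held 2 or more. The promoters of Ankrd1, Ajuba, Cyr61 and Amotl2 are shown, since the RNA of these targets is compared throughout, 5′ to 3′ on the gene's strand with the matches in capitals.
Ankrd1, chr19:36119795-36120094, minus strand: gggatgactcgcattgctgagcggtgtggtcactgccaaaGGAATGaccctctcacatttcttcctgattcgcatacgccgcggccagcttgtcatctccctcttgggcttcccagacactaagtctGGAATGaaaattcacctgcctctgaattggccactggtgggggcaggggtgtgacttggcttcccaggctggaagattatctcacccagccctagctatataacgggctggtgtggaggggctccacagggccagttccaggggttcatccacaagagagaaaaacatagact
Ajuba, chr14:54577612-54577911, minus strand: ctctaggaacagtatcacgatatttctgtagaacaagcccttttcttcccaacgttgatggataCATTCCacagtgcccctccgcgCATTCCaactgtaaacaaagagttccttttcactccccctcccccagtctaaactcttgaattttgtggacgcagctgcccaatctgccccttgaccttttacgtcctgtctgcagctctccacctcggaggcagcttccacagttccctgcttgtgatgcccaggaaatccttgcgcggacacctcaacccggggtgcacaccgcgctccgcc
Cyr61, chr3:145649936-145650235, minus strand: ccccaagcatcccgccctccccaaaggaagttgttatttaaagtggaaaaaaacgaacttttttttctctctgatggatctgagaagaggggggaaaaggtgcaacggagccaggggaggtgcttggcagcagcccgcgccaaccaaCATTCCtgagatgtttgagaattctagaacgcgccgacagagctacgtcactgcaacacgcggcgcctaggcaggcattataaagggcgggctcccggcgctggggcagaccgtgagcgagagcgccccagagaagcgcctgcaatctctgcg
Amotl2, chr9:102717554-102717853, plus strand: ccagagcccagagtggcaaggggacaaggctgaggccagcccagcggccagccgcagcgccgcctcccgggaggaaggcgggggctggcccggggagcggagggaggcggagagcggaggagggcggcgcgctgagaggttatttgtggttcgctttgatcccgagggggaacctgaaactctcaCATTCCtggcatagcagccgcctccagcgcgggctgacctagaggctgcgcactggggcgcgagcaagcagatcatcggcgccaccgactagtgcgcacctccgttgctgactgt
Ankrd1 and Ajuba were the 2 genes with 2 matches, which began 210 and 123 bases before the start in Ankrd1 and 186 and 164 bases before it in Ajuba. The match began 103 bases before the start in Cyr61 and 65 before it in Amotl2. Yap1 (141 bases before its start) and Wwtr1 (170 and 136 bases before the starts of 2 overlapping entries) held GGAATG as well. These distances are from the RefSeq start. The gene coordinates given below are from GENCODE and start further upstream for Ankrd1 and Amotl2. The printed promoters of both lie inside those coordinates, so their matches fall after the GENCODE start. A match describes the letters and does not show that a factor binds there.

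The libraries held 18527017 to 19402863 reads in LSEC and 47000197 to 57397720 in liver. LSEC libraries are named by their position in the table. The summed level of 10 sinusoidal markers was 282404 to 296836 normalized reads in NASH LSEC, against 536254 to 570453 in chow LSEC, and none of the 10 was at 0. The 10 hepatocyte markers summed to 39440 to 84356 in NASH LSEC and 7043 to 85538 in chow LSEC. In liver, they summed to 3235734 to 3706865 in NASH and to 6747120 to 7288576 in chow. Values below are the authors' normalized reads, which are read counts divided by 1 factor per library. Log2 fold changes are NASH over chow on log2(value + 1), from limma with Benjamini-Hochberg adjustment over all genes of the table, and a gene was called at an adjusted p under 0.05.

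In NASH liver the RNA of TAZ, TEAD1, Ankrd1 and Ajuba was higher, while Ctgf, Cyr61 and Amotl2 did not pass the test. That of YAP was lower on the authors' scaling, a call that equal library totals end. In LSEC only Ankrd1 passed. Of the 8 genes, 4 were called higher and 1 lower in liver, where 46.0% of all genes were called, 25.0% higher and 21.0% lower. In LSEC 1 was called higher and 0 lower by limma, against 8.11% of all genes called, 5.24% higher and 2.86% lower. At an unadjusted p under 0.05, 3 of the 8 passed in LSEC (Tead1, Ctgf and Ankrd1, all upward) and 6 in liver (the called genes and Cyr61). The share of all genes at that unadjusted threshold was not computed. It cannot be below the called share, 8.11% in LSEC and 46.0% in liver, so these counts are not read as a result. The median log2 fold change of the 8 was 0.63 in LSEC and 0.72 in liver, against 6.78e-05 and 0.02 over all genes. With libraries scaled to equal totals, the median over all genes moved by 0.135 in LSEC and by 0.40 in liver, and values below are on the authors' scaling unless equal totals are named. With equal totals 6 of the 8 genes were called higher and 0 lower in liver, and 52.6% of all genes were called, 47.2% higher and 5.41% lower. On the recovered reads edgeR called 7.16% of genes in LSEC and 45.3% in liver.

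**Figure D1:**
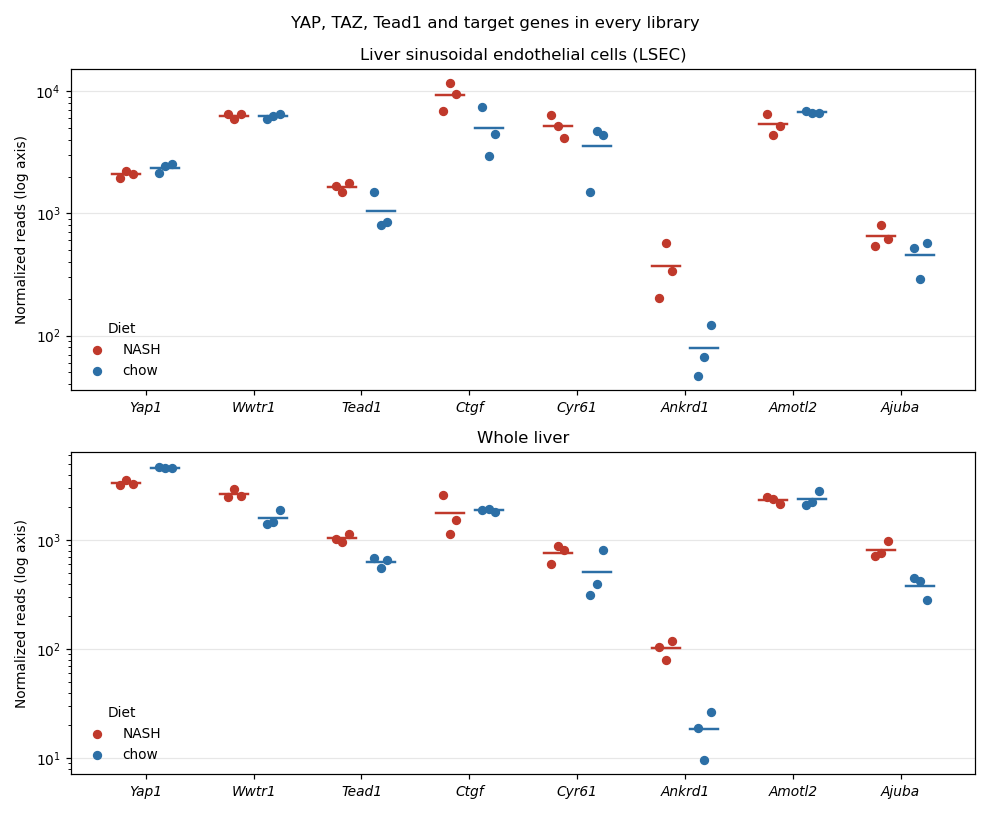
Normalized reads (log axis) of the 8 genes in each library, LSEC above and whole liver below, with NASH left of chow; points are libraries and lines are means of 3. Ankrd1 is higher in all 3 NASH libraries than in all 3 chow libraries in both tissues, while Ctgf overlaps between diets in both.

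Wwtr1 (chromosome 3, 57455649 to 57575910, minus strand, mm10) encodes TAZ. In liver it had 2487, 2940 and 2524 normalized reads in NASH, against 1403, 1474 and 1877 in chow. The groups did not overlap. In liver 5 of the 8 genes did not overlap between diets, 4 of them higher and 1 lower, against 57.1% of all genes, 29.8% higher and 27.3% lower. The log2 fold change was 0.75 ± 0.12 (SE; limma, adjusted p = 0.000970, n = 3 per group). In LSEC it had 6476, 5927 and 6453 in NASH and 5895, 6320 and 6456 in chow. These groups overlapped almost fully, with a log2 fold change of 0.01 and a 95% interval of -0.24 to 0.26 (limma, adjusted p = 0.952).

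Yap1 (chromosome 9, 7931999 to 8004596, minus strand), the gene of the paralogous co-activator, had 3204, 3572 and 3310 normalized reads in NASH liver, against 4696, 4601 and 4607 in chow liver. Every NASH liver library was below every chow liver library. It fell by 0.46 on the log2 scale (95% interval -0.64 to -0.29; limma, adjusted p = 0.00119), but with libraries scaled to equal totals the log2 fold change was -0.05 (limma, adjusted p = 0.642). As CPM, reads over the library's total, Yap1 was 74.0 ± 4.41 in NASH liver and 76.5 ± 2.13 in chow liver (SD, n = 3 each). On recovered reads, with its own scaling, edgeR gave a log2 fold change of -0.46 (adjusted p = 0.00178). DESeq2 gave -0.46 as well (adjusted p = 1.21e-05). The size of the fall and its call thus depended on the scaling, while its sign did not turn. An antisense gene, Gm20416, shares 116 exon bases with Yap1. LSEC held 1954, 2226 and 2110 in NASH and 2134, 2424 and 2537 in chow. The diets overlapped there, at a log2 fold change of -0.17 with an interval of -0.45 to 0.10 (limma, adjusted p = 0.397).

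The ratio of Wwtr1 to Yap1 within a library, each per kilobase of exon, is free of library scaling. This ratio was chosen after the values were seen. In liver it was 1.50, 1.59 and 1.48 in NASH, against 0.579, 0.621 and 0.789 in chow. Per kilobase, TAZ RNA thus exceeded YAP RNA in every NASH liver and was below it in every chow liver. That order rests on the exon lengths used, 9.257 kb for Yap1 and 4.779 kb for Wwtr1. In normalized reads, not divided by length, Yap1 was above Wwtr1 in every liver library. The fold change of the ratio between diets does not depend on length. The mean ratio was 1.52 ± 0.061 in NASH liver and 0.663 ± 0.11 in chow liver (SD, n = 3 each). A two-sided exact permutation test gave p = 0.1, the smallest that 3 against 3 libraries allow. LSEC had ratios of 6.42, 5.16 and 5.92 in NASH and 5.35, 5.05 and 4.93 in chow. TAZ RNA was the more abundant in all 6 LSEC libraries. In liver, 6 of 10 hepatocyte markers fell, and of 10 sinusoidal markers 6 fell and 1 rose. In the same livers 9 of 14 stellate and fibroblast markers, 8 of 8 bile duct markers and 8 of 10 macrophage markers rose. So did 5 of 8 smooth muscle and myofibroblast markers. The part of these lists in the Wwtr1 and Yap1 values was not tested. The LSEC diets overlapped, at 5.83 ± 0.64 in NASH and 5.11 ± 0.22 in chow (SD, n = 3 each; two-sided exact permutation test, p = 0.2).

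**Figure D2:**
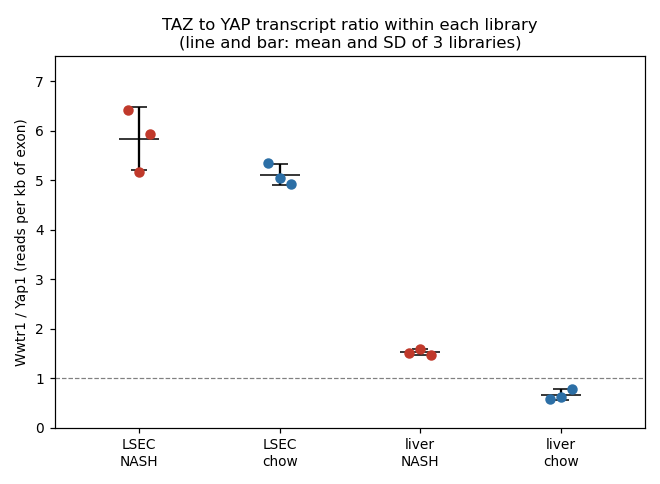
Ratio of Wwtr1 to Yap1 reads per kilobase of exon in each library, with NASH left of chow and LSEC left of liver; lines and bars are the mean and SD of 3 libraries, and the dashed line marks equal levels per kilobase, which rests on the exon lengths used. All 3 NASH livers lie above the dashed line and all 3 chow livers below it, and LSEC lie between 4.93 and 6.42.

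Tead1 (chromosome 7, 112679318 to 112906807, plus strand) had 1035, 967 and 1133 normalized reads in NASH liver, against 683, 552 and 658 in chow liver. The groups were apart, with a log2 fold change of 0.73 ± 0.12 (SE; limma, adjusted p = 0.000840). In LSEC the values were 1667, 1505 and 1783 in NASH and 1503, 799 and 857 in chow. They were also apart, but 1 chow library lay just below the lowest NASH library. In LSEC 3 of the 8 genes did not overlap between diets, 2 higher and 1 lower, against 31.9% of all genes, 16.5% higher and 15.4% lower. The log2 fold change was 0.71 ± 0.24 (SE) and was not called (limma, adjusted p = 0.120). Without that first chow library it was 0.99 and passed (limma, adjusted p = 0.0133). It passed with no other library left out. Over all single libraries left out it was 0.54 to 0.99, with limma adjusted p-values of 0.0133 to 0.316.

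Ankrd1 (chromosome 19, 36111961 to 36120099, minus strand), which encodes the stress-responsive cardiac ankyrin repeat protein, had the largest fold change of the 8 genes in both tissues. In liver it had 105.6, 80.4 and 119.0 normalized reads in NASH, against 19.0, 9.71 and 26.7 in chow. The lowest NASH liver was above the highest chow liver. The log2 fold change was 2.49 ± 0.37 (SE; limma, adjusted p = 0.000528), from 343 reads in the 3 NASH livers and 51 in the 3 chow livers. LSEC held 204, 567 and 335 in NASH and 47.0, 66.4 and 123 in chow. The LSEC groups did not overlap either, with a log2 fold change of 2.20 ± 0.47 (SE; limma, adjusted p = 0.0359). That call was lost whichever single LSEC library was left out, with limma adjusted p-values of 0.0516 to 0.121 and log2 fold changes of 1.83 to 2.58. On the recovered reads the LSEC adjusted p was 0.0409 by edgeR and 7.32e-05 by DESeq2. DESeq2 called 16.3% of the 15312 genes to which it gave an adjusted p.

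Bile duct markers were also higher in NASH. In liver, all 8 markers of the list rose, and their summed level was 2132 to 4087 normalized reads in NASH against 1367 to 1416 in chow. In LSEC 3 of 8 rose, Cftr and Cldn4 among them, and the sums were 1439, 7175 and 3178 in NASH against 713, 774 and 1260 in chow. Within each diet the order of the LSEC libraries by this sum was their order by Ankrd1. With 3 libraries a diet such a match is weak, and bile duct was only 1 of the marker lists. Macrophage marker sums had the order of Ankrd1 in NASH LSEC too, at 52057, 65059 and 54410. In chow LSEC, at 32846, 21491 and 11458, they did not. In liver the orders did not match in either diet: the NASH sums were 4087, 2132 and 3700, and the chow sums were 1367, 1416 and 1387, where the highest sum went with the lowest Ankrd1. None of the 8 markers was at 0 in any LSEC library. The part of these markers in the Ankrd1 result was not tested. In bulk RNA a change in the number of cells of a type and a change in RNA per cell cannot be told apart.

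**Figure D3:**
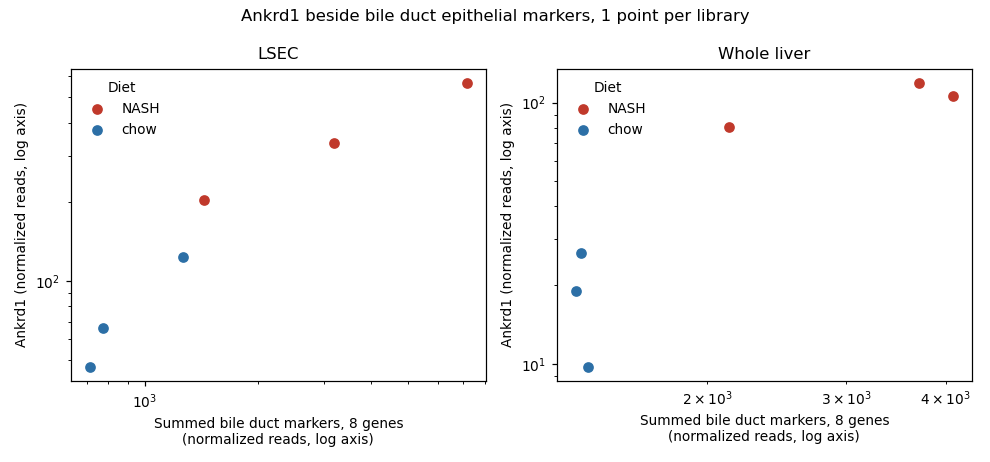
Ankrd1 against the summed level of 8 bile duct markers, both as normalized reads on log axes, 1 point per library, LSEC left and whole liver right. In LSEC the NASH library with the highest marker sum (7175) also has the highest Ankrd1 (567), and the chow library with the lowest sum (713) has the lowest (47.0). In liver the orders do not match, and the chow library with the highest sum (1416) has the lowest Ankrd1 (9.71).

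Ctgf (chromosome 10, 24595442 to 24598683, plus strand; current symbol Ccn2) encodes connective tissue growth factor, a secreted matricellular protein much used as a readout of YAP and TAZ. In LSEC it had 6885, 11620 and 9536 normalized reads in NASH, against 7486, 2963 and 4428 in chow. The first chow library exceeded the first NASH library, so the groups overlapped. The log2 fold change was 0.99 ± 0.34 (SE; 95% interval 0.18 to 1.79), which was not called (limma, adjusted p = 0.126), and without the first chow library it was 1.33 (limma, adjusted p = 0.0419). No other library left out made it pass. Over all single libraries left out it was 0.67 to 1.33, with limma adjusted p-values of 0.0419 to 0.292. In liver Ctgf had 2624, 1149 and 1525 in NASH, against 1888, 1955 and 1810 in chow. NASH livers lay on both sides of the narrow chow range. The log2 fold change was -0.18 with an interval of -0.71 to 0.35 (limma, adjusted p = 0.567). Its sign depended on 1 library and on the scaling, at -0.51 (limma, adjusted p = 0.0207) without the first NASH liver, 0.09 (limma, adjusted p = 0.751) without the second and 0.24 (limma, adjusted p = 0.432) with equal totals. An antisense gene, Gm15270, shares 665 exon bases with Ctgf, and reads of the 2 could be mixed where counting ignored strand.

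Cyr61 (chromosome 3, 145646976 to 145649981, minus strand; current symbol Ccn1), its close relative, is an immediate early matricellular gene. LSEC held 6368, 5169 and 4155 normalized reads in NASH and 1499, 4737 and 4381 in chow. The overlap was wide, with a log2 fold change of 0.71 ± 0.43 (SE; limma, adjusted p = 0.340), which was 0.18 without the first chow library (limma, adjusted p = 0.579). Liver values were 611, 889 and 814 in NASH, against 312, 395 and 815 in chow. The third chow liver reached the level of the NASH livers. The liver log2 fold change of 0.71 ± 0.30 (SE) was not called (limma, adjusted p = 0.0803), while it was 1.12 without that chow liver (limma, adjusted p = 0.00151) and 1.13 with equal totals (limma, adjusted p = 0.0148). It was 0.42 without the first chow liver (limma, adjusted p = 0.260), and neither edgeR (adjusted p = 0.128) nor DESeq2 (adjusted p = 0.275) called it.

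Ajuba (chromosome 14, 54567472 to 54577558, minus strand) encodes a LIM protein that binds LATS kinases and restrains them. In liver it had 717, 761 and 975 normalized reads in NASH, against 450, 420 and 283 in chow. The groups were well apart, with a log2 fold change of 1.10 ± 0.19 (SE; limma, adjusted p = 0.00120). LSEC had 541, 807 and 618 in NASH and 516, 290 and 567 in chow. They overlapped in LSEC, where the log2 fold change of 0.55 ± 0.28 (SE) was not called (limma, adjusted p = 0.262).

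Amotl2 (chromosome 9, 102716672 to 102733418, plus strand) encodes an angiomotin family protein that holds YAP outside the nucleus and is itself a target. LSEC values were 6494, 4382 and 5163 normalized reads in NASH, against 6828, 6676 and 6585 in chow. All 3 NASH values were below the chow values, though the first by little. The log2 fold change of -0.34 ± 0.16 (SE) did not pass (limma, adjusted p = 0.219). Liver values were 2479, 2378 and 2161 in NASH and 2096, 2253 and 2820 in chow. The liver groups overlapped, with a log2 fold change of -0.02 and an interval of -0.29 to 0.24 (limma, adjusted p = 0.899). With equal totals Amotl2 passed the test upward in liver, at 0.39 (limma, adjusted p = 0.0247).

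**Figure D4:**
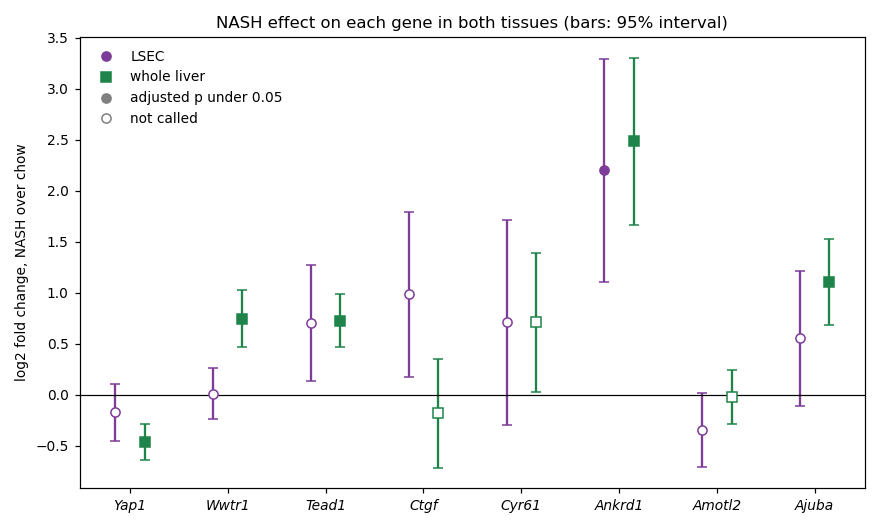
Log2 fold change of NASH over chow for each of the 8 genes, with LSEC (circles) left of whole liver (squares); bars are 95% intervals and filled symbols have an adjusted p under 0.05. Wwtr1 is at 0.01 in LSEC and 0.75 in liver, while the point values of Tead1 and Cyr61 are near 0.7 in both. Their LSEC intervals are wide, and Cyr61 in LSEC is 0.18 without 1 chow library.

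The response to NASH differed between the tissues for Wwtr1. The difference of the log2 fold changes, LSEC minus liver, was -0.74 ± 0.16 (SE; 95% interval -1.08 to -0.39; limma, adjusted p = 0.00490). An edgeR interaction on recovered reads gave -0.81 (adjusted p = 0.0120). Among all 15766 genes measured in both tissues, 19.5% differed, 7.99% higher and 11.5% lower in LSEC, and of the 8 genes Wwtr1 was the 1 called. Ctgf differed by 1.17 ± 0.42 (SE; interval 0.26 to 2.07) and missed the threshold (limma, adjusted p = 0.0664). It passed without the first chow LSEC library (limma, adjusted p = 0.0108) or without the first NASH liver (limma, adjusted p = 0.0240). The edgeR interaction for Ctgf was 0.93 (adjusted p = 0.205), and over all single libraries left out the limma adjusted p was 0.0108 to 0.168. The difference was 0.29 for Yap1, with an interval of -0.01 to 0.60 (limma, adjusted p = 0.163), -0.32 for Amotl2 (limma, adjusted p = 0.267) and -0.55 for Ajuba (limma, adjusted p = 0.277). With equal totals the difference was 0.015 for Yap1 and -0.60 for Amotl2, which then passed (limma, adjusted p = 0.0391). Ajuba passed without the second chow LSEC library, at -0.85 (limma, adjusted p = 0.0435). Over all single libraries left out its limma adjusted p was 0.0435 to 0.543. For Tead1, Cyr61 and Ankrd1 it was -0.02, 0.00 and -0.28, with limma adjusted p-values of 0.965, 0.999 and 0.775. The intervals were -0.62 to 0.57 for Tead1, -1.13 to 1.13 for Cyr61 and -1.55 to 0.98 for Ankrd1. They do not show an equal response, since a sizeable difference in either direction was not detectable here.

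Levels between genes were compared as mean normalized reads per kilobase of exon. In NASH LSEC the order was Ctgf at 3267, Cyr61 at 2591, Wwtr1 at 1315, Amotl2 at 850, Yap1 at 226, Ajuba at 180, Ankrd1 at 128 and Tead1 at 122. Ctgf and Cyr61 overlapped, as did each neighbouring pair from Yap1 down. In chow LSEC Cyr61 was at 1753, Ctgf at 1733, Wwtr1 at 1302, Amotl2 at 1065, Yap1 at 255, Ajuba at 126, Tead1 at 77.6 and Ankrd1 at 27.3. There Cyr61, Ctgf and Wwtr1 overlapped as neighbours, and so did Ajuba and Tead1. By mean, the matricellular pair and TAZ led the set in LSEC on both diets. In chow LSEC, however, the ranges of Cyr61 (742 to 2346) and Ctgf (1035 to 2617) took in that of Amotl2 (1047 to 1086).

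In NASH liver the order per kilobase was Ctgf at 617, Wwtr1 at 555, Cyr61 at 382, Amotl2 at 372, Yap1 at 363, Ajuba at 224, Tead1 at 77.0 and Ankrd1 at 35.2. Ctgf overlapped Wwtr1, and Cyr61, Amotl2 and Yap1 overlapped as neighbours. In chow liver Ctgf was at 659, Yap1 at 501, Amotl2 at 380, Wwtr1 at 332, Cyr61 at 251, Ajuba at 105, Tead1 at 46.5 and Ankrd1 at 6.39. Amotl2, Wwtr1 and Cyr61 overlapped as neighbours there, and Yap1 lay above all of them. Ankrd1 was the least abundant of the 8 in liver on both diets.

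Across the separately normalized tables, levels are given as CPM from the recovered reads. Wwtr1 was at 349 CPM in NASH LSEC and 314 in chow LSEC, against 58.3 in NASH liver and 26.2 in chow liver. Ctgf was at 520 CPM in NASH LSEC and 251 in chow LSEC, against 38.9 in NASH liver and 31.1 in chow liver. Yap1 differed less between tissues, at 117 in NASH LSEC, 119 in chow LSEC, 74.0 in NASH liver and 76.5 in chow liver. Amotl2 was at 297 CPM in NASH LSEC and 338 in chow LSEC, and at 51.4 in NASH liver and 39.6 in chow liver. Cyr61 was at 291 CPM in NASH LSEC and 178 in chow LSEC, against 17.0 in NASH liver and 8.45 in chow liver. All 8 genes had a higher mean CPM in both LSEC groups than in either liver group. For Ajuba the gap was small, at 23.2 ± 7.69 in chow LSEC and 18.1 ± 4.07 in NASH liver (SD, n = 3 each).

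Other genes of the pathway were taken from 4 lists, chosen with earlier results of these data known. Of 18 further YAP/TAZ targets in liver, 12 rose and 2 fell, and the list's median was 1.05 on the log2 scale, where 25.0% of all genes were called higher and 21.0% lower. The largest changes among those named were in Gadd45a, a stress response gene, at 3.16, and Myof, a membrane repair protein, at 2.61 (limma, adjusted p = 1.12e-05 and 3.61e-06). Tgfb2, a TGF-beta ligand, was at 2.34, Ccdc80, a matrix protein, at 2.22 and the receptor tyrosine kinase Axl at 1.28. Dock5 fell by 0.51 and the ectonucleotidase gene Nt5e by 0.68, and with equal totals none of the list fell. In LSEC 5 of 17 measured targets rose and none fell by limma, with a median of 0.75, where 5.24% of all genes were called higher and 2.86% lower. They were Myof at 2.11, Axl at 1.40, the coagulation initiator F3 at 2.08, Fjx1 at 2.55 and Igfbp3 at 2.09 (limma, adjusted p = 0.0201 to 0.0442). Stellate and fibroblast markers moved in the same direction, with 4 of 14 higher in LSEC and sums of 47653 to 91626 in NASH against 13423 to 39374 in chow, and with 9 higher and 1 lower of 14 in liver. Macrophage markers did too, with 5 of 10 higher in LSEC and sums of 52057 to 65059 in NASH against 11458 to 32846 in chow. The part of either list in these results was not tested. None of the LSEC pathway calls was made on leaving out NASH library 2 or 3.

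Among the partners of YAP and TAZ in liver, Tead2 rose by 1.18, Tead4 by 0.98 and the cofactor Vgll3 by 1.63, and Tead3 fell by 0.66 (limma, adjusted p = 0.000620). With equal totals 3 were higher and 0 lower, so the call of Tead3 as lower was lost. On recovered reads edgeR called 3 higher and 1 lower. None of the 5 measured partners passed by limma in LSEC, while 1 was higher by DESeq2 and 1 with equal totals. Tead3 was at 1.02 in LSEC (limma, adjusted p = 0.0606), and its difference, LSEC minus liver, was 1.68 ± 0.28 (SE; limma, adjusted p = 0.00356). Of 23 upstream Hippo genes in liver, 5 were higher and 4 lower, at a median of -0.09, and with equal totals 12 were higher and 0 lower. Over all genes 25.0% were higher and 21.0% lower, and with equal totals 47.2% and 5.41%, so the share of Hippo genes called was no larger than that of all genes. Map4k4, a kinase that activates LATS, rose by 0.90, Frmd6 by 1.16, Wtip by 0.94 and Amot by 0.42. Taok2, Taok3 and Lats1 had log2 fold changes of -0.58, -0.50 and -0.35. Ptpn14 at 0.60 and Mob1b at -0.55, named after their values were seen, complete the calls, and Ptpn14 is also on the target list. Without the first NASH liver, 5 of the 23 Hippo genes (4 higher, 1 lower) and 2 of the 5 partners (1 higher, 1 lower) were called. In LSEC the 1 call of the 23 was Fat1, an atypical cadherin, which had 265, 622 and 551 normalized reads in NASH against 106, 87.0 and 104 in chow. The Fat1 groups were far apart, with a log2 fold change of 2.18 ± 0.33 (SE; limma, adjusted p = 0.0160).

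Of the 4 other members of the CCN family, to which Ctgf and Cyr61 belong, 2 passed in each tissue, where 8.11% of all genes were called in LSEC and 46.0% in liver, so the liver count is near the share of all genes. Wisp2 (current symbol Ccn5) rose by 3.08 in LSEC and by 3.13 in liver. Wisp1 (Ccn4) had 753, 702 and 666 normalized reads in NASH LSEC, against 1243, 1099 and 1300 in chow LSEC. In liver it had 107, 141 and 170 in NASH, against 45.1, 47.5 and 33.8 in chow. Thus Wisp1 was lower in all 3 NASH LSEC libraries (log2 fold change -0.78; limma, adjusted p = 0.0169) and higher in all 3 NASH livers (1.69; limma, adjusted p = 0.000550). The difference, LSEC minus liver, was -2.47 ± 0.28 (SE; limma, adjusted p = 7.65e-05).

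**Figure D5:**
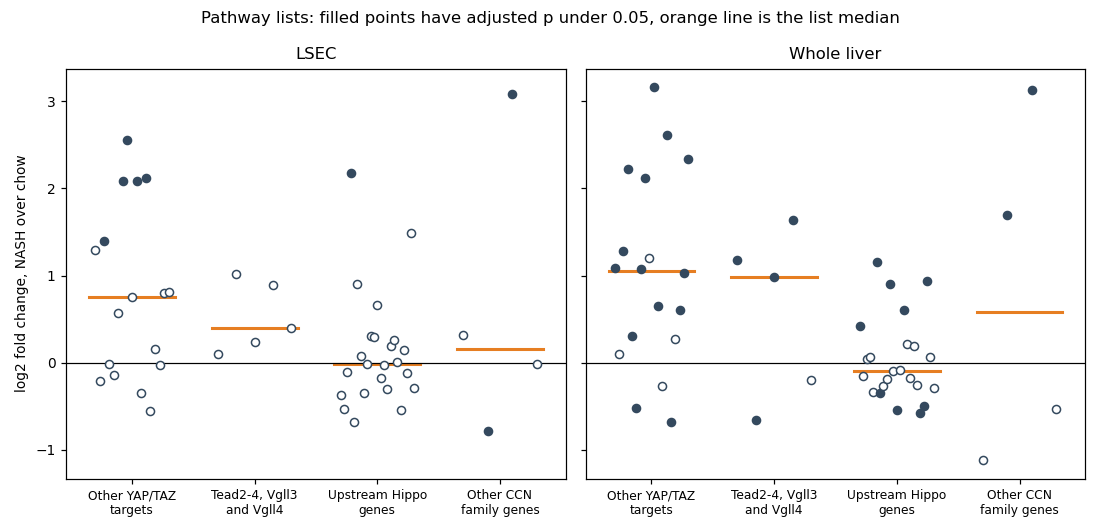
Log2 fold change of NASH over chow for every measured gene of the 4 pathway lists, LSEC left and whole liver right; filled points have an adjusted p under 0.05 and the orange line is the list's median. The targets have a median of 0.75 in LSEC and 1.05 in liver, and upstream Hippo genes centre near 0 in both, which moves to 0.13 and 0.32 with equal totals.

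The genes whose values followed those of Yap1, Wwtr1 and Ctgf most closely were found by Pearson's r over the 12 libraries, each tissue centred on its own mean, among 10962 genes. They were Serinc1, Hsdl2 and Pex19 for Yap1 (r = 0.98, 0.98 and 0.97). For Wwtr1 they included Morc4 and Rnf145 (r = 0.96 and 0.95). Ctgf was followed less closely, by Unc13b, Vars and Prr5 (r = 0.89, 0.89 and 0.87). These values describe the 12 libraries, which share the diet groups.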

How the data were processed

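RNA-seq of whole liver and LSEC was analysed from 2 tables, 1 per tissue. The build was mm10 and the tools named were STAR, HTSeq, DESeq2, FastQC and Seurat, per the submitters' processing notes. Their versions and the strand setting are not given in the sources. The deposited signal values are read counts divided by 1 factor per library, by the authors. Dividing by the smallest step returned whole reads for 100% of values (tolerance 0.01). The authors' deposited log2 fold changes, p-values and adjusted p-values were read for comparison only: their adjusted p for Ankrd1 in LSEC, in the authors' deposited table, was 7.05e-05. 

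Each tissue was fitted alone with limma 3.58.1 (R 4.3.3), with a variance trend, on log2(value + 1) over all genes without a filter. The tissue difference was tested by dividing the LSEC minus liver log2 difference by its standard error, with Welch-Satterthwaite degrees of freedom, over 15766 genes. Alternatives were edgeR 4.0.16 and DESeq2 1.42.0 on recovered reads, pseudocounts of 0.1 and 10, a mean of at least 10, equal totals, a threshold of 0.01, a replicate block and each library left out. edgeR called 1165 genes in LSEC and 7559 in liver. The steps were tested on simulated data. The members and lists were chosen with earlier results of these data known. Of each list and tissue, the 3 called genes with the smallest adjusted p were named, with up to 2 more in each direction. Some genes behind small counts or rankings are left unnamed and are not reported here. Coordinates and exon lengths are from GENCODE M21. LSEC columns carry no replicate number, so LSEC libraries are named by position. In liver, same-numbered libraries had correlations of deviations of -0.0135, -0.0157 and 0.0981, so the numbers were not taken as pairs.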

Additional observations from a re-analysis of the deposited data

Results flagged for a closer look

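The effect of NASH on Wwtr1, the gene of TAZ, differed between the tissues by a test of the difference itself, at -0.735 on the log2 scale for LSEC minus liver (limma, adjusted p = 0.00490). Wwtr1 was at 6476, 5927 and 6453 normalized reads in NASH LSEC, against 5895, 6320 and 6456 in chow LSEC. In liver it was at 2487, 2940 and 2524 in NASH, against 1403, 1474 and 1877 in chow. Over the alternatives tried the adjusted p was 8.53e-05 to 0.0228. In liver, hepatocyte markers were lower in NASH (6 of 10 fell), and of 10 sinusoidal markers 6 fell and 1 rose. The sinusoidal sums were 21236 to 24715 normalized reads in NASH liver and 33815 to 36881 in chow liver. They were lower in NASH LSEC as well. In liver 9 of 14 stellate and fibroblast, 8 of 8 bile duct, 8 of 10 macrophage and 5 of 8 smooth muscle and myofibroblast markers rose. The part of all these in the Wwtr1 result was not tested.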

How the results depend on the processing

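Of 376 alternative values for the 8 genes, 333 kept their direction and their side of the threshold, 24 changed sign, 11 came to pass the threshold and 8 no longer passed it. Members called in liver (5) ranged from 5 to 6 with a library left out. Those in LSEC (1) were 0 at a threshold of 0.01 and 0 to 2 with a library left out. Pathway genes called in liver were 28 of 48 measured, where 46.0% of all genes were called. They were 18 at a threshold of 0.01 and 21 to 30 with a library left out. In LSEC they were 8 of 47 measured, where 8.11% of all genes were called. DESeq2 called 14 there, but it also called 16.3% of the genes it tested. At a threshold of 0.01 they were 0, and with a library left out 0 to 6. Leaving out NASH library 2 or 3 left 0, and leaving out chow library 3 left 1. Members with a different effect between tissues (1) were 2 with a normal distribution, 2 with equal totals and 1 to 2 with a library left out. Signs turned only for values whose 95% interval spans 0, and the cause was not tested. With equal totals, liver Ctgf was at 0.24 and Amotl2 at 0.39, and the tissue difference of Cyr61 at -0.28. That of Cyr61 was -0.14 with an edgeR interaction and -0.00050 with a pseudocount of 0.1, and that of Ankrd1 0.064 with a pseudocount of 10. With a library left out, the log2 fold change was -0.51 to 0.087 for Ctgf and -0.11 to 0.10 for Amotl2 in liver and -0.025 to 0.056 for Wwtr1 in LSEC. The tissue difference was then -0.19 to 0.26 for Tead1, -0.53 to 0.30 for Cyr61 and -0.66 to 0.095 for Ankrd1. With the replicate block in liver, 6 members were called, Cyr61 being the added one (limma, adjusted p = 0.0279), with 26 pathway genes and 1 tissue difference. The numbers do not pair the libraries, and LSEC columns carry none, so the block was run in liver only. No paired analysis was possible because of that in LSEC. With 3 libraries a group, no exact test of a single value can give a p under 0.1. Few reads stand behind Ankrd1 in liver, with 9 in its lowest library, and behind Vgll3, with 8 there and 2 in its lowest LSEC library.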
